A study of Mus musculus with 4 samples.

Results

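Genes of the Hippo-YAP pathway and its targets were followed in bulk liver mRNA of mice on a liver-injuring diet. The 10 genes, Yap1, Wwtr1, Tead1, Tead2, Tead4, Lats2, Ccn1, Ccn2, Ankrd1 and Amotl2, were taken by gene name from a deposited table of 13903 genes, and all 10 were found in it. The mice, OGT-floxed and of C57BL/6J background, ate a CDE (choline-deficient, ethionine-supplemented) diet. Livers were collected either with no recovery from the diet or at 7 days of recovery. Mice labelled OGT-KO carried the AAV8-TBG-CRE virus, and mice labelled control carried AAV8-TBG-eGFP. The floxed alleles, the strain and the diet were therefore shared by all 4 groups. The TBG promoter drives Cre in hepatocytes, so the other cells of the liver keep an intact Ogt gene in this model. Each group was 1 library of RNA pooled equally from 3 mice, which leaves no replicate error for any value. The age and sex of these mice are not given in the sources used here.

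YAP (Yap1) and TAZ (Wwtr1) are transcriptional coactivators that have no DNA-binding domain of their own and act through the TEAD factors. When the Hippo kinases are active, LATS1 and LATS2 phosphorylate YAP and TAZ, which are then kept in the cytoplasm or degraded. In liver the pathway is known for its control of organ size and of the choice between hepatocyte and bile duct identity, and YAP is also active in stellate cells that make scar.

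Values are CPM, the reads of a gene scaled to a library total of 1000000. The libraries held 19972699 to 22866431 reads on the listed genes, which puts the floor of 3 reads at 0.131 to 0.150 CPM. Intervals in parentheses are exact 95% binomial intervals (Clopper-Pearson for a level, conditional on the reads of both libraries for a ratio) and cover the error of counting reads alone, with nothing on how mice differ. Ogt, the targeted gene, had 64.7 CPM in the control-labelled and 55.3 CPM in the OGT-KO-labelled library with no recovery. After 7 days it had 55.7 CPM in the control-labelled library and 77.7 CPM in the OGT-KO-labelled library. At equal totals the whole-gene value of Ogt thus went against the label at 7 days. Its difference there on the log2(CPM + 1) scale was 0.47, near the 0.48 of the median gene averaging at least 10 CPM. With the libraries scaled by upper quartile or by median ratio it was -0.0053 or -0.20. Every direction below is one between libraries by their labels. Alb and the other 4 hepatocyte markers checked were abundant in all 4 libraries, with a summed level of 50370 to 75742 CPM.

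At the deposited scaling all 10 Hippo-YAP genes were higher in both OGT-KO-labelled libraries than in both control-labelled libraries. That order was common in these libraries, since 74.4% of all listed genes and 70.0% of the genes past the filter showed it. Yap1 showed it so narrowly that its sign changed under other scalings. A gene was compared when its mean over the 4 libraries was at least 10 CPM, which left 8963 genes and 7 of the 10 members. It was called at a 2-fold difference on the log2(CPM + 1) scale, which understates the change of low genes. Of the 7 compared members, 4 were called higher at each time point (Wwtr1, Tead1, Ccn1 and Ccn2) and 0 were called lower. Among all compared genes, 24.4% were called higher and 5.69% lower with no recovery, 22.9% were called higher and 4.27% lower after 7 days, and 19.2% were called higher at both times. With no filter, 7 of the 10 members were 2-fold or more higher at each time, against 33.1% of all genes with no recovery and 32.3% after 7 days. The members past the filter are a selected set, since Tead1, Lats2 and Ccn2 passed it through their levels in the OGT-KO-labelled libraries. Wwtr1, Yap1, Ccn1 and Amotl2 held at least 10 CPM in both control-labelled libraries.

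**Figure D1:**
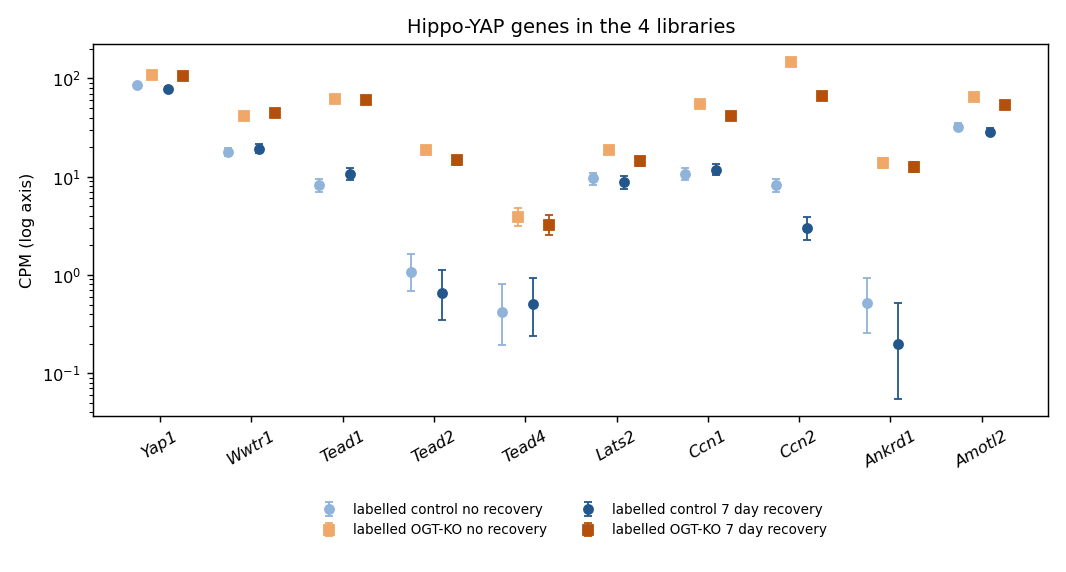
CPM of the 10 Hippo-YAP genes (log axis) in each of the 4 libraries; points are single libraries and bars are exact 95% counting intervals. At this scaling the squares of the OGT-KO-labelled libraries stand above the circles of the control-labelled libraries for every gene, closest for Yap1 (77.8 to 108 CPM over the 4 libraries, with a sign that changed under other scalings) and widest for Ankrd1 (0.200 to 13.8 CPM).

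The 2 coactivators differed in how far they moved. Yap1 (ENSMUSG00000053110) had 85.1 CPM in the control-labelled and 108 CPM in the OGT-KO-labelled library with no recovery, and 77.8 and 106 CPM after 7 days. Both OGT-KO-labelled libraries were above both control-labelled ones, but the ratio was 1.27 (1.20 to 1.35) with no recovery against 1.36 (1.27 to 1.45) after 7 days, under the 2-fold limit. On the log2 scale its differences of 0.35 and 0.44 lay below the median compared gene, which stood at 0.51 and 0.48, and 59.3% and 52.9% of the compared genes were higher than Yap1 in that ranking. Wwtr1 (ENSMUSG00000027803), which encodes TAZ, had 17.9 CPM in the control-labelled and 41.8 CPM in the OGT-KO-labelled library with no recovery, and 19.3 and 44.4 CPM after 7 days. Its libraries formed 2 pairs by label with little change between the times, and the ratio was 2.34 (2.07 to 2.64) with no recovery against 2.30 (2.04 to 2.59) after 7 days. Relative to the median gene, the log2 differences of Wwtr1 were 0.67 and 0.68, less than a 2-fold change.

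The balance between the coactivators can be read within each library, where the scaling of the library cancels. Per kb of exon, the ratio of Yap1 to Wwtr1 was 2.46 (2.20 to 2.75) and 2.08 (1.86 to 2.33) in the control-labelled libraries with no recovery and after 7 days. In the OGT-KO-labelled libraries the same ratio was 1.34 (1.24 to 1.45) and 1.23 (1.14 to 1.32). Wwtr1 made up 28.9% and 32.5% of the summed per-kb level of the pair under the control label, and 42.7% and 44.9% under the OGT-KO label. Yap1 was the more abundant RNA of the pair in every library, by a smaller margin under the OGT-KO label.

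The 3 TEAD factors among the members were low under the control label and several-fold higher under the OGT-KO label. Tead1 (ENSMUSG00000055320) had 8.19 CPM in the control-labelled and 62.4 CPM in the OGT-KO-labelled library with no recovery, and 10.7 and 60.1 CPM after 7 days. The ratio was 7.62 (6.51 to 8.98) with no recovery against 5.63 (4.87 to 6.54) after 7 days, and only 3.51% and 6.71% of the compared genes had a larger log2 difference. The TEAD1 protein binds DNA for YAP and TAZ. Its RNA was higher in both OGT-KO-labelled libraries than in both control-labelled ones, an order that 70.0% of the compared genes showed. Tead2 (ENSMUSG00000030796) rested on 23 and 13 reads in the control-labelled libraries, at 1.08 CPM with no recovery and 0.651 CPM after 7 days, against 18.8 and 14.7 CPM in the OGT-KO-labelled libraries. Its mean of 8.81 CPM was under the filter, so it was not called, and its ratio was 17.4 (11.4 to 27.7) with no recovery against 22.6 (13.0 to 42.9) after 7 days. Exons of Tead2 overlap those of Cd37, a leukocyte gene on the opposite strand in the GENCODE M21 annotation. Cd37 had 3.10, 8.97, 0.851 and 8.29 CPM in the order control and OGT-KO with no recovery, then control and OGT-KO after 7 days, and since the strand setting of the counting is not given, the reads of the pair may be mixed. Both OGT-KO-labelled libraries stood more than 10 CPM above both control-labelled ones for Tead2. Tead4 (ENSMUSG00000030353) was the lowest of the 3, at 0.423 and 3.89 CPM with no recovery and 0.501 and 3.23 CPM after 7 days. It too was under the filter, and its ratio of 9.19 (4.63 to 20.8) with no recovery against 6.46 (3.32 to 14.0) after 7 days came from 9 and 10 reads in the control-labelled libraries.

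The fourth family member, Tead3, differed little between the labels at equal totals, and its share of the family differed much. Tead3 had 14.2 and 16.7 CPM in the control-labelled and OGT-KO-labelled libraries with no recovery and 19.0 and 21.1 CPM after 7 days. Per kb of exon, it made up 69.0% and 72.8% of the summed level of the 4 TEAD genes under the control label, and 20.6% and 27.3% under the OGT-KO label. Tead1 made up 19.7% and 20.2% of the family under the control label and 38.0% and 38.3% under the OGT-KO label, and Tead2 7.39% and 3.49% against 32.5% and 26.6%. Tead4 was the smallest share under the OGT-KO label, at 8.94% and 7.79%. The family sum was 3.06 and 3.89 CPM per kb under the control label and 12.1 and 11.5 CPM per kb under the OGT-KO label. Set against Yap1 in the same library and per kb, Tead1 stood at 0.0656 and 0.0935 under the control label and at 0.393 and 0.388 under the OGT-KO label. The shares and ratios, unlike the sums, do not depend on the scaling of a library. The shares of Tead2 rest on 23 and 13 reads under the control label. Any reads of Cd37 counted as Tead2 would enter the family sum and every share.

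**Figure D2:**
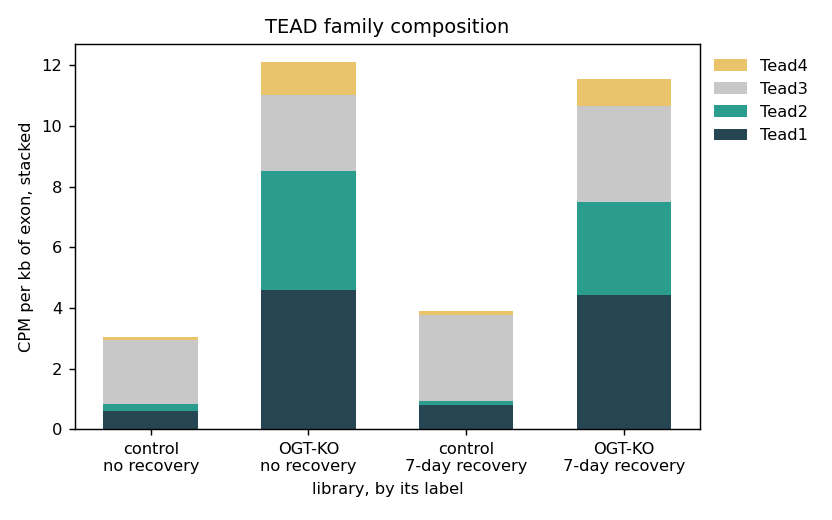
CPM per kb of exon of the 4 TEAD genes, stacked, in each of the 4 libraries by label. Tead3, which is not among the 10 members, fills most of both control-labelled bars (69.0% and 72.8%), whereas Tead1 and Tead2 together are the larger part of both OGT-KO-labelled bars, whose totals are 12.1 and 11.5 CPM per kb. The Tead2 part may include reads of the overlapping gene Cd37.

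Lats2 and Amotl2 encode inhibitors of YAP that are themselves known YAP targets, the first a kinase and the second an angiomotin family member that holds YAP outside the nucleus. Lats2 (ENSMUSG00000021959) had 9.60 CPM in the control-labelled and 18.6 CPM in the OGT-KO-labelled library with no recovery, and 8.76 and 14.3 CPM after 7 days. Its ratio of 1.94 (1.64 to 2.31) with no recovery against 1.63 (1.35 to 1.97) after 7 days was under the 2-fold limit at both times. Amotl2 (ENSMUSG00000032531) had 32.3 and 64.5 CPM with no recovery and 28.8 and 53.1 CPM after 7 days, also with both OGT-KO-labelled libraries above both control-labelled ones. Its ratio was 1.99 (1.82 to 2.19) with no recovery against 1.84 (1.67 to 2.04) after 7 days, and its log2(CPM + 1) differences of 0.97 and 0.86 fell just short of the call. Among the compared members these were the nearest below the 2-fold limit, as Wwtr1, at 1.18 and 1.16, was the nearest above it. Per kb, Lats2 stood at 0.358 (0.304 to 0.420) and 0.286 (0.241 to 0.339) of its paralog Lats1 under the control label and at 0.502 (0.446 to 0.564) and 0.400 (0.350 to 0.455) under the OGT-KO label. Lats1 was thus the more abundant kinase RNA in every library. Amotl2 was the most abundant of the 3 angiomotin genes in every library, with 72.8% of their summed per-kb level in both control-labelled libraries and 62.3% and 53.3% in the OGT-KO-labelled libraries.

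The 3 members best known as readouts of YAP-TEAD activity, Ccn1, Ccn2 and Ankrd1, had wide differences between the labels. Known YAP targets carry sites that the TEAD factors read. Promoter sequence was therefore shown for Ankrd1, Ccn1 and Amotl2, the targets whose windows held the TEAD core defined below. Lats2, also a known target, has windows in the same source, but they lacked the core and are not shown. The windows below are the 250 bases before the RefSeq transcript start in GRCm38.p6, 5′ to 3′ on the strand of the gene. Capitals mark the TEAD core, GGAATG or its reverse complement CATTCC, found by a search of both strands. The Ankrd1 window is chr19:36119845-36120094, the Ccn1 window chr3:145649986-145650235 (both minus strand) and the Amotl2 window chr9:102717554-102717803 (plus strand).
Ankrd1: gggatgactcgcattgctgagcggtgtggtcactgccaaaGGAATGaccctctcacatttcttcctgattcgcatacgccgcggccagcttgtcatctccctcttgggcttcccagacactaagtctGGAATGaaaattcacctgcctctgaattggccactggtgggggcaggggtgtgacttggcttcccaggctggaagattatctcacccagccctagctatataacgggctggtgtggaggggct
Ccn1: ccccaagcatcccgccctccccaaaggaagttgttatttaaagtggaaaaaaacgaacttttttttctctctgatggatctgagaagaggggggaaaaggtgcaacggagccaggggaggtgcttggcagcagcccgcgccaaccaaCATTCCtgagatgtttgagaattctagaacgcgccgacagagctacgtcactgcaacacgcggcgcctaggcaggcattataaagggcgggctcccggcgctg
Amotl2: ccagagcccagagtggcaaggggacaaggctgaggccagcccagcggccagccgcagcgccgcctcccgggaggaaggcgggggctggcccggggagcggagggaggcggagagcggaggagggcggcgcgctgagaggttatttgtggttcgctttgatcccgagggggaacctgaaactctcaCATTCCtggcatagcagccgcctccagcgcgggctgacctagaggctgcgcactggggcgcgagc

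The core began 210 and 123 bases before the start in Ankrd1, 103 bases before it in Ccn1 and 65 bases before it in Amotl2. It was also present 141 bases before the start of Yap1 and 136 bases before that of Wwtr1, whose second entry in the table covers the same site at 170 bases. Of the 7 members with an entry, 5 held the core, and Tead2 and Lats2 did not have these letters in their windows. Over all 32851 windows of this length, from 27025 genes, 12.6% held the core at least once and 1.02% at least 2 times. The AP-1 letters TGANTCA, which read the same on both strands and can share their TG with a TEAD core, were in 0 of the 7 members' windows and in 6.75% of all windows. Ccn2, Tead1 and Tead4 have no entry.

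Ccn2 (ENSMUSG00000019997), also called connective tissue growth factor, is a matricellular protein that drives scar formation. It had 8.14 CPM (173 reads) in the control-labelled and 146 CPM (3333 reads) in the OGT-KO-labelled library with no recovery. After 7 days it had 3.00 CPM (60 reads) and 66.7 CPM (1506 reads). Both OGT-KO-labelled libraries were far above both control-labelled ones, and each label was lower after 7 days than with no recovery. The ratio was 17.9 (15.4 to 21.0) with no recovery against 22.2 (17.2 to 29.3) after 7 days, with log2 differences of 4.01 and 4.08. Of the 8963 compared genes, 77 and 93 had a larger log2 difference at these times.

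Ccn1 (ENSMUSG00000028195), a related matricellular protein also known as CYR61, had 10.7 CPM in the control-labelled and 54.7 CPM in the OGT-KO-labelled library with no recovery, and 11.8 and 41.0 CPM after 7 days. Its ratio was 5.12 (4.44 to 5.92) with no recovery against 3.49 (3.02 to 4.04) after 7 days. Ccn1 was thus higher under the OGT-KO label at both times, by less than Ccn2 was. Per kb, Ccn2 was at 0.538 (0.439 to 0.658) and 0.180 (0.133 to 0.240) of Ccn1 under the control label and at 1.88 (1.76 to 2.01) and 1.15 (1.06 to 1.25) under the OGT-KO label. Ccn1 was the more abundant of the pair in both control-labelled libraries and Ccn2 in both OGT-KO-labelled libraries.

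Ankrd1 (ENSMUSG00000024803), an ankyrin repeat protein of muscle and of cells under mechanical load, was close to the floor under the control label. It had 0.517 CPM (11 reads) with no recovery against 0.200 CPM (4 reads) after 7 days in the control-labelled libraries, against 13.8 CPM (316 reads) and 12.5 CPM (282 reads) in the OGT-KO-labelled libraries. Its mean of 6.76 CPM was under the filter. The ratio was 26.7 (14.7 to 54.0) with no recovery against 62.4 (24.1 to 231) after 7 days, and the intervals of the 2 ratios overlap. Relative to Yap1 in the same library and per kb, Ankrd1 stood at 0.0195 and 0.00826 under the control label and at 0.409 and 0.379 under the OGT-KO label. For Ccn2 the same quantity was 0.309 and 0.125 under the control label and 4.35 and 2.04 under the OGT-KO label. The targets therefore differed in their level relative to Yap1 RNA, in comparisons that no scaling of the libraries can change.

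Recovery from the diet was read within each label, and Ccn2 was the only member called in it. In the libraries labelled control it fell 2.71-fold (2.01 to 3.70) from no recovery to 7 days, and in those labelled OGT-KO it fell 2.18-fold (2.05 to 2.32). Both control-labelled values, 8.14 and 3.00 CPM, were under 10 CPM. With a pseudocount of 10 the log2 difference under the control label was -0.48, and it was not called there. A fall of this size was rare, since 0.960% of the compared genes were called lower and 0.245% higher under the control label, and 0.435% lower and 1.04% higher under the OGT-KO label. Only 45 and 26 genes had a larger fall in log2 than Ccn2, and 7 genes, or 0.0781%, were called lower under both labels. The other 6 were the stress genes Atf3, Ddit3 and Hspa1b, the clock gene Per1, the kinase Plk3 and the glucocorticoid-induced Tsc22d3, named here after their values were seen. Ccn2 was the lowest of the compared members under either label, as the log2 differences of the other 6 lay between -0.16 and 0.34 under the control label and between -0.41 and 0.09 under the OGT-KO label.

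The remaining members changed little with recovery. Of all 10, 9 were lower after 7 days in the libraries labelled OGT-KO, with Wwtr1 the exception, and 6 in those labelled control. The median log2 difference of all listed genes was also below 0, at -0.018 and -0.047 in that order. Lower values after 7 days were thus common among all genes. Ccn1 stood at 0.751 (0.689 to 0.818) of its no-recovery level under the OGT-KO label, while its ratio under the control label was 1.10 (0.914 to 1.33), an interval that includes no change. Lats2 and Amotl2 had log2 differences of -0.36 and -0.28 under the OGT-KO label and of -0.12 and -0.16 under the control label.

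**Figure D3:**
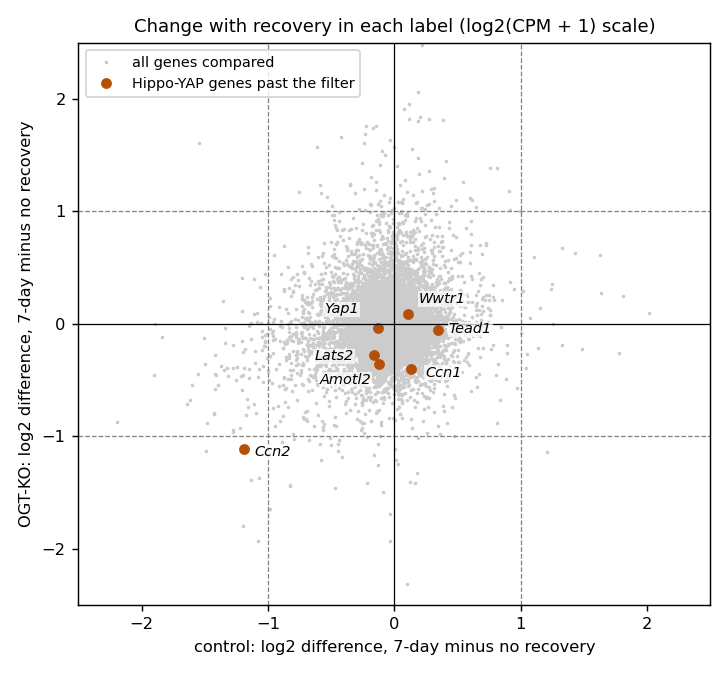
Log2 difference between 7 days and no recovery under the control label (x axis) and the OGT-KO label (y axis), on the log2(CPM + 1) scale, for the 8963 compared genes in grey and the 7 compared Hippo-YAP genes in orange. Dashed lines mark 2-fold; Ccn2 lies beyond them in the lower left at -1.19 and -1.12, the other 6 members lie within them, and 7 grey genes are beyond the axes.

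The size of these differences depends on how the libraries are scaled, because most genes were higher under the OGT-KO label at equal totals. With the libraries scaled by upper quartile the median compared gene stood at 0.04 and 0.01 in place of 0.51 and 0.48, and with median ratio scaling at -0.19 and -0.18. Tead1, Ccn1 and Ccn2 stayed 2-fold or more higher under each scaling, at 2.11 and 1.74 for Tead1, 1.57 and 1.07 for Ccn1 and 3.32 and 3.48 for Ccn2 under median ratio scaling. Wwtr1 did not, with 0.72 and 0.69 by upper quartile and 0.49 and 0.50 by median ratio. Yap1 changed sign, with -0.13 and -0.04 by upper quartile and -0.37 and -0.24 by median ratio, so no direction can be given for it. Lats2 came down to 0.22 and 0.02 and Amotl2 to 0.27 and 0.19 by median ratio.

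**Figure D4:**
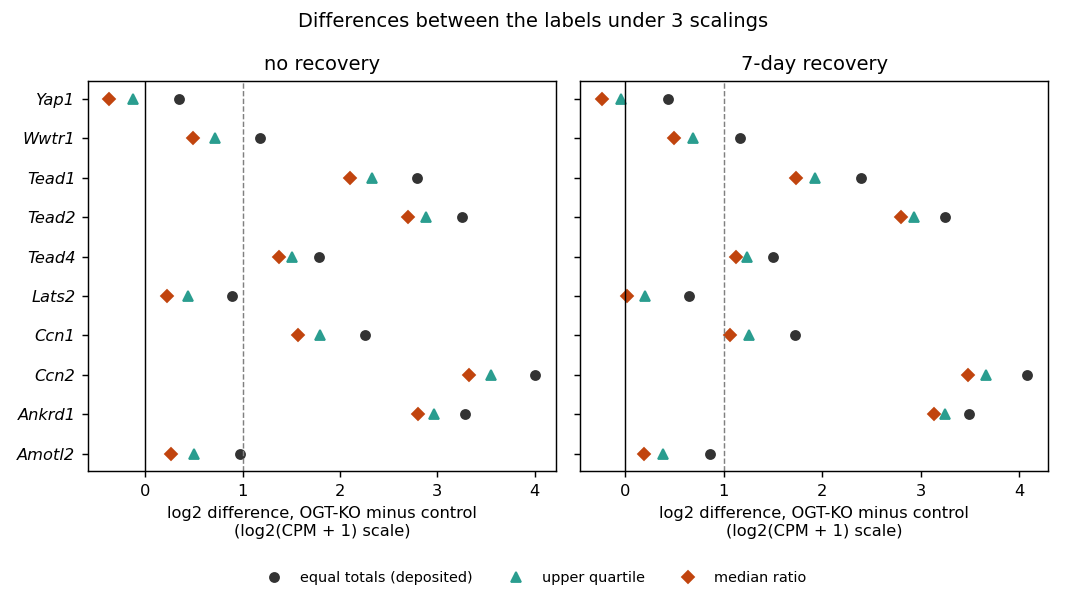
Log2 difference between the OGT-KO-labelled and the control-labelled library for each of the 10 genes under 3 scalings, with no recovery (left) and after 7 days (right); each point is 1 pair of libraries, and the dashed line marks 2-fold. Yap1 lies on both sides of 0, Wwtr1, Lats2 and Amotl2 lie below the dashed line under both other scalings, and Tead1, Tead2, Tead4, Ccn1, Ccn2 and Ankrd1 stay beyond it.

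Other genes of the Hippo pathway were also counted. Of 30 listed, 26 passed the filter, and 11 with no recovery and 10 after 7 days were called higher, 10 of them at both times, with 0 lower, where 24.4% and 22.9% of all compared genes were called higher. The 26 are a selected set, since some of those called passed the filter through the OGT-KO-labelled libraries. Under the control label, Frmd6 had 5.46 and 5.26 CPM and Dlg5 7.95 and 8.66 CPM. The median log2 differences of the 26, at 0.69 and 0.65, were above the 0.51 and 0.48 of all compared genes at equal totals. By median ratio they were -0.02 and -0.01, against -0.19 and -0.18 of all compared genes. By role, 2 and 1 of the 10 compared core kinases and their adaptors were called higher, 9 and 9 of the 14 compared upstream and junction proteins, and 0 of the 2 compared nuclear partners. The count of the kinases and adaptors is no larger than the share of all compared genes gives. Among those with the largest mean difference, 5 are named, Map4k4, a kinase that can act on LATS, at 2.55 and 3.17, the LATS inhibitor Ajuba at 2.95 and 2.03, the FERM protein Frmd6 at 1.99 and 2.20, the angiomotin Amotl1 at 1.55 and 2.29 and the scaffold Dlg5 at 1.78 and 1.88.

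Other genes listed as YAP or TEAD targets had a larger median. Of 17 listed, 16 had values (Foxf2 was not analysed here) and 13 passed the filter. Of these, 11 were called higher at each time, the same 11 at both, with 0 lower. Among all compared genes, 24.4% and 22.9% were called higher, and 19.2% at both times. The 13 are a selected set, since many of those called passed the filter through the OGT-KO-labelled libraries. Myof, Nt5e, Ptpn14 and Arhgef17, among others of the 11, were under 10 CPM in both control-labelled libraries. In the control-labelled library with no recovery, Myof had 2.40 CPM and Nt5e 4.19 CPM. The median log2 differences of the 13 were 2.23 and 2.68. The largest were those of Ccdc80, a matrix protein, at 3.69 and 5.07, the membrane repair protein Myof at 3.93 and 3.97, and Nt5e, the ecto-5′-nucleotidase CD73, at 3.26 and 4.31. Axl, a receptor tyrosine kinase, stood at 2.46 and 3.45, the phosphatase Ptpn14 at 2.45 and 3.24 and the exchange factor Arhgef17 at 2.23 and 3.39. The 2 that were not called were Dock5, at 0.53 and 0.77, and Nuak2, at 0.22 and -0.25. Many of these genes, such as Ccdc80 and Axl, are also expressed by fibroblasts or macrophages.

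**Figure D5:**
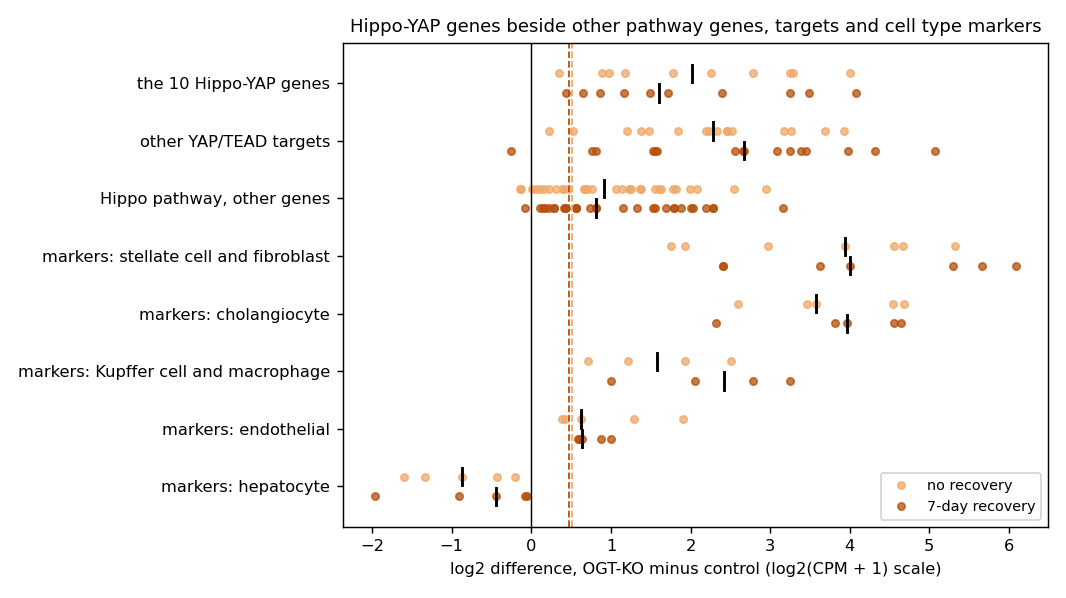
Log2 difference between the OGT-KO-labelled and the control-labelled libraries (log2(CPM + 1) scale) for the 10 Hippo-YAP genes, other targets, other pathway genes and markers of 5 cell types; each point is a gene, black bars are list medians over all genes with values, and dashed lines are the medians of all compared genes. The other targets reach 5.07 (Ccdc80 after 7 days), the stellate cell markers reach 6.09, and the hepatocyte markers lie below 0.

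Markers of several other liver cells also differed between the labels, though not all of them by much more than the median gene. All 7 stellate cell and fibroblast markers were called higher at both times, where 19.2% of all compared genes were. Their summed level was 126 and 92.2 CPM under the control label and 2928 and 3767 CPM under the OGT-KO label. All 5 cholangiocyte markers were called higher at both times, with sums of 53.7 and 69.6 CPM against 1148 and 1457 CPM. Of the latter sums, Spp1 alone gave 977 and 1245 CPM. Both lists are selected sets, since some of their markers passed the filter through the OGT-KO-labelled libraries. Under the control label, for example, Krt7 had 0.894 and 1.10 CPM and Acta2 5.22 and 2.95 CPM. Sums of the 4 Kupffer cell and macrophage markers were 105 and 38.1 CPM against 303 and 206 CPM, those of the 5 endothelial markers 148 and 109 CPM against 246 and 178 CPM, and those of the 5 hepatocyte markers 67173 and 75742 CPM against 50370 and 62160 CPM. At equal totals the hepatocyte sum was thus the one sum that was lower under the OGT-KO label. The endothelial markers had median log2 differences of 0.63 and 0.64, near the 0.51 and 0.48 of all compared genes. Of the 5, 2 and 0 were called higher, where 24.4% and 22.9% of all compared genes were. The 3 mesothelial markers summed to 4.28 and 3.76 CPM against 7.08 and 14.1 CPM, and the 3 T, B and NK cell markers with values to 1.65 and 1.10 CPM against 4.81 and 2.88 CPM. Of the mesothelial and of the T, B and NK cell markers, 0 passed the filter, so they were not called. In bulk tissue, more cells of a type and more RNA per cell cannot be told apart, and the part of cell makeup in the differences of the Hippo-YAP genes was not tested.

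Ccn2 was set against genes of the stellate cell list within each library and per kb. Its ratio to Acta2, the smooth muscle actin of activated stellate cells, was 1.20 (0.937 to 1.53) and 1.19 (1.12 to 1.25) under the control and OGT-KO labels with no recovery, and 0.781 (0.536 to 1.14) and 0.820 (0.762 to 0.883) after 7 days. The labels thus differed in this ratio by less than the counting intervals at each time. Against Col1a1, the collagen that led the list, Ccn2 stood at 0.890 and 0.382 with no recovery and at 0.418 and 0.128 after 7 days, lower under the OGT-KO label at both times. Against the receptor Pdgfrb it stood at 1.42 and 3.00 with no recovery and at 0.595 and 0.981 after 7 days, higher under the OGT-KO label. Between no recovery and 7 days the stellate cell sum went from 2928 to 3767 CPM under the OGT-KO label while Ccn2 fell from 146 to 66.7 CPM. Most of that sum was collagen RNA, with Col1a1 at 875 and 1192 CPM and Col3a1 at 1212 and 1549 CPM. Acta2 had 94.3 and 62.4 CPM there, a log2 difference of -0.59 that was not called.

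The genes with profiles most like those of Yap1 and Ccn2 were found by the Euclidean distance between centred log2(CPM + 1) values over the 4 libraries. Nearest to Yap1 were the ribosomal protein gene Rps21, Mettl9 and Tsta3, at distances of 0.0123, 0.0124 and 0.0240. Nearest to Ccn2 were Thbs1, Postn and Lgals3, at 0.227, 0.265 and 0.274. Thbs1 and Postn encode matricellular proteins and Lgals3 encodes galectin-3. Thbs1, for one, had 3.53 and 74.2 CPM under the control and OGT-KO labels with no recovery and 1.35 and 39.0 CPM after 7 days. With 4 libraries that fall into 2 pairs by label, such a likeness is a description of the profile only.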

How the data were processed

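Total RNA from liver was made into mRNA libraries, and each of the 4 groups was 1 library of RNA pooled from 3 mice. The submitters' processing notes name STAR, DESeq2 and GRCm39, with no versions or roles. The authors deposited 1 table, named for DESeq2 normalization, whose values are CPM: each column sums to 1000000 and 100% of the values are whole multiples of 1 read (tolerance 0.01), so whole reads were recovered (19972699 to 22866431 per library). The design assumed size-factor values and was run on CPM unchanged. Unmatched per-sample columns numbered 0.

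Differences are of log2(CPM + 1), for genes averaging 10 CPM or more, called at 2-fold. Because a group is 1 library, no difference could be checked in a replicate or given a p-value. Exon lengths are the unions of GENCODE M21 exons (GRCm38), promoters come from the RefSeq table (GRCm38.p6), and exons of 6 of the 10 members overlap no other gene there. Gm20416, Gm49361 and Gm15270 overlap Yap1, Lats2 and Ccn2 and have no values here.

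The members and lists were chosen with earlier results of these data known. All members were named, and of the pathway and target lists the 6 genes with the largest mean absolute difference over both times, except that 1 pathway gene is not reported here. Tead3, Lats1, Acta2, Pdgfrb, Col3a1, Krt7, Spp1, Cd37, Dock5 and Nuak2 were named after their values were seen. Alternatives were pseudocounts of 0.1 and 10, no filter or a mean of 50, thresholds of 1.5-fold and 4-fold, 3 other scalings, and an exact binomial test on reads. Steps were tested on simulated reads. Python 3.11, numpy 2.4.6, pandas 2.3.3, scipy 1.17.1 and matplotlib 3.10.9 were used.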

Additional observations from a re-analysis of the deposited data

Results flagged for a closer look

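In each of the following, the libraries moved in opposite directions under the 2 labels or at the 2 times. None of these differences was tested, since each group is 1 library. From no recovery to 7 days, 3 members went down under the OGT-KO label and up under the control label. The log2 change under the OGT-KO label less that under the control label was -0.40 for Tead1, -0.28 for Tead4 and -0.53 for Ccn1. Tead4 rests on 9 and 10 reads in the control-labelled libraries.

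Among the other pathway genes, the same quantity was -0.91 for Ajuba, which also went down under the OGT-KO label and up under the control label. It was 0.62 for Map4k4, 0.21 for Frmd6 and 0.73 for Amotl1, all of which went up under the OGT-KO label and down under the control label. Among the other targets it was 1.38 for Ccdc80, 1.06 for Nt5e, 0.79 for Ptpn14 and 1.16 for Arhgef17, in the same directions as Map4k4. Not every direction is clear of counting error, since the interval of the recovery ratio included no change for Tead4, Ccn1, Frmd6 and Ptpn14 under the control label and for Tead1, Tead4 and Nt5e under the OGT-KO label. Frmd6 under the control label had a log2 change of -0.045 and a ratio of 0.963 (0.733 to 1.27), and less the median gene its change was 0.0052, no longer opposite to that under the OGT-KO label. Ogt had 0.70, both as its recovery change under the OGT-KO label less that under the control label and as its difference between the labels at 7 days less that with no recovery.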

How the results depend on the processing

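No paired analysis was possible because each group is 1 library and the labels carry no replicate numbers. The count of members higher under the OGT-KO label, 4 at each time, became 7 and 7 with no filter, 1 and 1 with a mean of at least 50 CPM and 2 after 7 days at a 4-fold threshold. The single member called with recovery became 0 under either label at 4-fold, and 0 under the control label with a pseudocount of 10. Of the other pathway genes, 2 and 5 were higher at 4-fold, 4 and 4 with a mean of at least 50, and 5 with no recovery by median ratio scaling. Other targets came to 2 and 2 with a mean of at least 50. Signs changed only with scaling. Yap1 came to -0.16 and -0.041 less the median gene, -0.13 and -0.043 by upper quartile and -0.37 and -0.24 by median ratio. The median of the other pathway genes came to -0.017 and -0.011 by median ratio. Ogt after 7 days came to -0.0050 less the median gene, -0.0053 by upper quartile and -0.20 by median ratio. Of 140 counts recomputed, 125 stayed within 1.5 times the main count. These include the counts of genes called lower under the OGT-KO label, which were 0 under every setting. Of 350 single values and medians, 169 stayed near the main value, 170 moved away from it and 11 changed sign. The exact binomial test on reads compares 2 libraries and not conditions. At these read numbers most compared genes pass it, called or not, so it adds no check of the calls. Ankrd1, Tead2 and Tead4 rest on 4 to 23 reads in the control-labelled libraries, so their ratios are known only within wide intervals.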
